A study of Apera spica-venti with 32 samples.

Results

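Pentatricopeptide repeat (PPR) proteins are RNA-binding proteins that are encoded in the nucleus and act almost entirely in chloroplasts and mitochondria. Their repeats read a single RNA strand base by base, and individual members edit, splice, cleave or stabilise particular organelle transcripts or promote their translation. Land plants carry a very large family of them, and many members are needed for photosynthesis, respiration or embryo growth. In a leaf, most of the photosynthetic protein messages that such factors handle are made inside the chloroplast.

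The PPR features described here were all features whose deposited description contains the word pentatricopeptide, in any case. They numbered 64 among the 39590 reading frames of the transcript assembly, called features here, or 0.162%, and 0.803% of the 7967 features that carry a description. Of the 64, 13 were named chloroplastic, 11 were named mitochondrial and 40 carried neither word. The place is that of the homolog in the description and was not measured in this grass. The 64 members lay on 64 contigs of 64 assembled genes, and 14 of them shared their contig with a feature that is no member. Descriptions named 42 different Arabidopsis loci for 47 members and no locus for 17, of which 15 read only "pentatricopeptide repeat-containing protein" in the same spelling. The 2 members described as At3g16010 homologs came from 1 assembly cluster, so reads may be divided between them.

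The members were chosen by measured values as well as by name: the deposited table describes a feature only if it passed in at least 1 of the authors' 4 comparisons of these same libraries. The values below that compare sprayed with untreated plants, or resistant with susceptible ones, are therefore the values the members were selected on. They are given as a description. Calls at an adjusted p under 0.05 are counted for them, but are not read as tests, since these values chose the members. Only comparisons between populations of the same class are read as tests. In the authors' deposited table, 17 members were listed for the spray response of resistant plants (12 up, 5 down), 60 for that of susceptible plants (33 up, 27 down), 6 between untreated classes (4 up, 2 down) and 5 between sprayed classes (all up). The members nearest the authors' limit of 0.05 were the homologs of At3g42630, At3g04750 and At3g16010 (TRINITY_DN26133_c0_g2_i1.p1), with smallest adjusted p-values of 0.0453, 0.0414 and 0.0405 in the authors' deposited table. Features just beyond the limit carry no description and cannot be recognised as PPR proteins.

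Leaf RNA was taken from Apera spica-venti, a weedy grass of cereal fields. The populations R2 and R1 are resistant to multiple herbicides, and S2 and S1 are susceptible; the resistance alleles are not given in the labels. Plants of each population grew at 21 °C and were sprayed once at an early leaf stage with the graminicide pinoxaden (Axial 50 EC), which blocks acetyl-CoA carboxylase, at a rate of 45 g per ha, or were left untreated. Each of the 8 groups had 4 replicates of 3 plants each, harvested 8 h after spraying; the labels record no mock spray and no separate harvest time for untreated plants. With 2 populations per class, p-values describe these 4 populations. Pooled leaf RNA cannot separate fewer cells of a type from less RNA per cell.

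The 32 libraries, made from total RNA with a stranded kit after removal of ribosomal RNA, held 26213780 to 46062806 counts, and PPR features took 0.0369% to 0.0524% of them. The 44 features described as chlorophyll-binding proteins, photosystem subunits or Rubisco subunits took 59.1% to 68.2% of counts in every library, as the label leaf would have it. Untreated R1 replicate 1 had 60.5% of its counts in the 10 most abundant features, the lowest share of any library. Of the 64 members, 63 had enough counts to be tested. The untested one was the second At3g48250 homolog (TRINITY_DN17269_c0_g1_i1.p1), with 0 to 13 counts per library.

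In susceptible plants the PPR features split into higher and lower ones after spraying, as features with a description did. Of 63 members, 30 were higher and 26 lower in sprayed than in untreated susceptible leaves at an adjusted p under 0.05 (edgeR, quasi-likelihood), together 88.9%. Over all 25036 tested features 25.4% passed, 13.5% higher and 11.8% lower. Over features with a description 79.2% passed, 42.5% higher and 36.7% lower, beside 47.6% and 41.3% of members. Since the same contrast brought nearly all members into the list, nothing is read from this share. The median log2 fold change was 0.36 for the members, 0.21 for described features and -0.01 for all tested features. With library totals in place of TMM scaling factors the split was 34 higher and 4 lower, on a scale where the median log2 fold change of all tested features stood at 0.30.

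By named place the counts were as follows, with no test between places. Of 12 tested chloroplastic members, 2 were higher and 7 lower, with a median log2 fold change of -0.36. Of 11 mitochondrial members, 6 were higher and 5 lower, with a median of 0.41. Of the 40 others, 22 were higher and 14 lower, with a median of 0.52. The places also differed in counts, as given with the count bins below, and place and counts were not separated. The higher members lay between 0.28 and 2.65 on the log2 scale (median 0.88) and the lower ones between -0.83 and -0.28 (median -0.55), so the lower side was narrow. With library totals alone, most of the lower calls were lost, as given above.

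**Figure D1:**
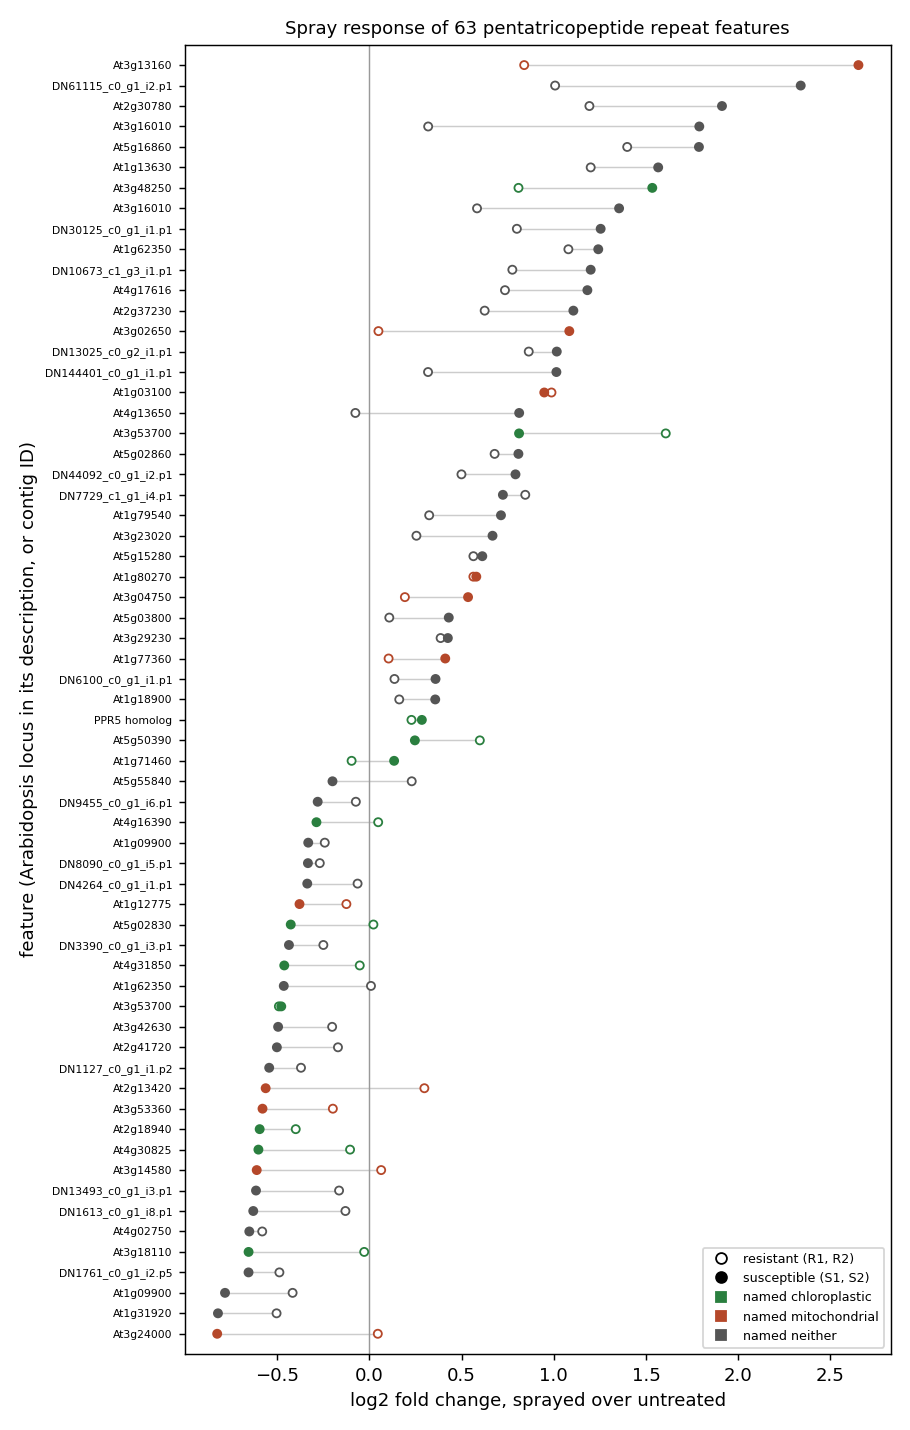
The horizontal axis gives the log2 fold change of sprayed over untreated leaves for the 63 tested PPR features, open circles for resistant and filled circles for susceptible populations, coloured by the place in the description. Susceptible values run from -0.83 to 2.65. In 57 of 63 features the susceptible value is farther from 0 than the resistant one. That is 90.5%, beside 81.5% of described and 62.4% of all tested features. The choice of members favours this, since most were listed for the susceptible response.

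Among the chloroplastic members, the factors with the most counts were all lower in sprayed susceptible leaves. The At4g30825 homolog (TRINITY_DN1166_c0_g1_i6.p1) is related to an Arabidopsis protein, BFA2, that protects a plastid transcript for subunits of the chloroplast ATP synthase. It had 46.5, 60.7, 63.7 and 44.4 CPM (counts scaled to library size, with TMM factors) in sprayed R2 and 51.3, 51.5, 64 and 50.8 in sprayed R1, against 59.6, 59.3, 60.8 and 62.1 in untreated R2 and 45.4, 63.9, 57.8 and 57.3 in untreated R1. There the sprayed and untreated libraries overlapped in both populations, with a log2 fold change of -0.11 ± 0.08 (SE). In susceptible plants it had 49.1, 43.3, 51.3 and 51.8 CPM in sprayed S2 and 44, 38.1, 39.3 and 37.6 in sprayed S1, against 65.2, 64.2, 73.1 and 63.3 in untreated S2 and 72.5, 68.2, 67.8 and 61.2 in untreated S1. Every sprayed susceptible library was below every untreated one, and the log2 fold change was -0.60 ± 0.08.

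The At4g31850 homolog (TRINITY_DN3297_c0_g1_i10.p1) corresponds to PGR3 of Arabidopsis, which acts on plastid messages of the cytochrome b6f and NDH complexes. Sprayed R2 had 36.8, 45.2, 42.1 and 42.6 CPM and sprayed R1 38.6, 43.3, 44.3 and 33, against 42.5, 41, 45.9 and 47.6 in untreated R2 and 35.8, 41.7, 40.5 and 43.2 in untreated R1. These ranges overlapped, with a log2 fold change of -0.05 ± 0.06. Sprayed S2 had 39.4, 37.7, 39.2 and 40 CPM and sprayed S1 30.7, 31.7, 32.9 and 32.3, against 46.8, 48.2, 51.2 and 44.4 in untreated S2 and 53.7, 47.5, 46.9 and 50.6 in untreated S1. No sprayed library reached the lowest untreated one in either susceptible population, and the log2 fold change was -0.46 ± 0.06.

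The At2g18940 homolog (TRINITY_DN3007_c0_g1_i9.p1) resembles maize PPR10, which binds plastid RNA next to an ATP synthase gene and a photosystem I gene. Its log2 fold change was -0.40 ± 0.11 in resistant and -0.60 ± 0.11 in susceptible plants, 1 of the 2 chloroplastic members called lower in both classes. The At3g18110 homolog (TRINITY_DN2754_c0_g1_i9.p1) is EMB1270 in Arabidopsis and needed there for splicing of chloroplast introns. It stood at -0.03 ± 0.13 in resistant and -0.66 ± 0.13 in susceptible plants. The difference between its responses in the classes was not called.

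The At3g53700 homolog TRINITY_DN5013_c0_g1_i1.p1, named in Arabidopsis for a maternal-effect embryo arrest, was lower in both classes by almost the same amount, -0.49 ± 0.12 in resistant and -0.48 ± 0.12 in susceptible plants. It had 12.2, 17.2, 12.4 and 11.8 CPM in sprayed R2 and 14.8, 11.7, 10.6 and 9.66 in sprayed R1, against 16, 21.8, 19 and 14.6 in untreated R2 and 23.6, 15, 15.4 and 15.5 in untreated R1. Sprayed S2 had 8.19, 12.5, 11.8 and 14 CPM and sprayed S1 10, 9.78, 11.5 and 10.2, against 14.8, 17.4, 17.1 and 13.2 in untreated S2 and 13.9, 14.5, 16.8 and 14.9 in untreated S1. Sprayed and untreated libraries were fully apart in R1 and S1, while R2 and S2 each had 1 sprayed library inside the untreated range. A second At3g53700 homolog (TRINITY_DN39456_c1_g1_i1.p1) went the other way from very few counts, 0 to 24 per library, at 1.61 ± 0.47 in resistant and 0.81 ± 0.44 in susceptible plants; the susceptible value did not pass the threshold.

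The At4g16390 homolog (TRINITY_DN9138_c0_g2_i6.p1) is SVR7 in Arabidopsis, which is needed for translation of chloroplast ATP synthase subunits. Its log2 fold change was 0.05 ± 0.10 in resistant and -0.29 ± 0.10 in susceptible plants. The susceptible value turned to 0.02 with library totals alone and no longer passed the threshold without any 1 of 8 libraries. Sprayed S2 had 24.7, 23.8, 27.4 and 25.9 CPM and sprayed S1 27.5, 18.8, 17.4 and 18.8, against 28.6, 22.9, 27.2 and 29.1 in untreated S2 and 29.1, 23.1, 28.5 and 35.2 in untreated S1. In S1 all but replicate 1 were below the untreated libraries, and in S2 the ranges overlapped.

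Only 2 of the tested chloroplastic members were called higher in sprayed susceptible leaves. One was the tested At3g48250 homolog (TRINITY_DN2924_c0_g1_i2.p1), at 0.81 ± 0.29 in resistant and 1.53 ± 0.29 in susceptible plants; its Arabidopsis counterpart, BIR6, splices a mitochondrial intron, although the description here says chloroplastic. The untested copy of the same locus had 6, 13, 12 and 11 counts in sprayed S1, and the authors' deposited table lists it with a susceptible log2 fold change of 2.04. The other was the PPR5 homolog (TRINITY_DN5117_c0_g1_i6.p1), named after a maize protein that protects a plastid glycine tRNA precursor, at 0.23 ± 0.10 in resistant and 0.28 ± 0.10 in susceptible plants. The call of the PPR5 homolog was lost without any 1 of 13 libraries.

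Mitochondrial members were found at both ends of the response. The At3g13160 homolog (TRINITY_DN148407_c0_g1_i4.p1) had the largest positive susceptible value, 2.65 ± 0.46, or 6.28-fold. Sprayed R2 had 0.762, 0.361, 0.271 and 0.354 CPM and sprayed R1 1.88, 2.04, 1.77 and 1.84, against 0.225, 0.636, 0.487 and 0.376 in untreated R2 and 1.62, 0.269, 0.298 and 0.157 in untreated R1. The ranges overlapped in R2 and were apart in R1. Sprayed S2 had 0.51, 1.36, 0.533 and 1.69 CPM and sprayed S1 2.23, 1.72, 2.62 and 0.958, against 0.082, 0.0731, 0.404 and 0.339 in untreated S2 and 0.238, 0.032, 0.403 and 0.174 in untreated S1. Every sprayed susceptible library was above every untreated one.

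The At3g24000 homolog (TRINITY_DN19543_c0_g1_i2.p1) had a log2 fold change of 0.05 ± 0.19 in resistant plants, against -0.83 ± 0.20 in susceptible plants, the most negative susceptible value of all tested members. It had 2.89, 2.46, 2.37 and 2.2 CPM in sprayed S2 and 0.385, 1.35, 1.43 and 1.83 in sprayed S1, against 4.57, 2.89, 3.46 and 2.42 in untreated S2 and 2.41, 2.43, 3.72 and 3.14 in untreated S1. All sprayed S1 libraries were below the untreated ones, and in S2 the ranges overlapped. The difference between the resistant and the susceptible response was not called for the At3g24000 homolog. The At3g53360 homolog (TRINITY_DN3562_c2_g1_i1.p1) was at -0.20 ± 0.10 in resistant and -0.58 ± 0.10 in susceptible plants.

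The At1g80270 homolog (TRINITY_DN17943_c1_g1_i1.p1) corresponds to PPR596 of Arabidopsis, which affects editing of a mitochondrial ribosomal protein message. It was higher to a like degree in both classes, at 0.56 ± 0.10 in resistant and 0.58 ± 0.10 in susceptible plants. It had 4.05, 3.64, 4.47 and 4.22 CPM in sprayed R2 and 3.31, 4.31, 4.35 and 5.32 in sprayed R1, against 2.85, 3.21, 3.02 and 2.88 in untreated R2 and 2.87, 2.31, 3.34 and 2.32 in untreated R1. Sprayed S2 had 3.91, 3.74, 4.56 and 3.42 CPM and sprayed S1 4.93, 4.47, 4.88 and 5.61, against 3.25, 3.8, 2.69 and 2.76 in untreated S2 and 2.83, 2.52, 2.75 and 3.02 in untreated S1. The libraries were fully apart in R2 and S1, while 1 sprayed R1 and 2 sprayed S2 libraries lay inside the untreated range.

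**Figure D2:**
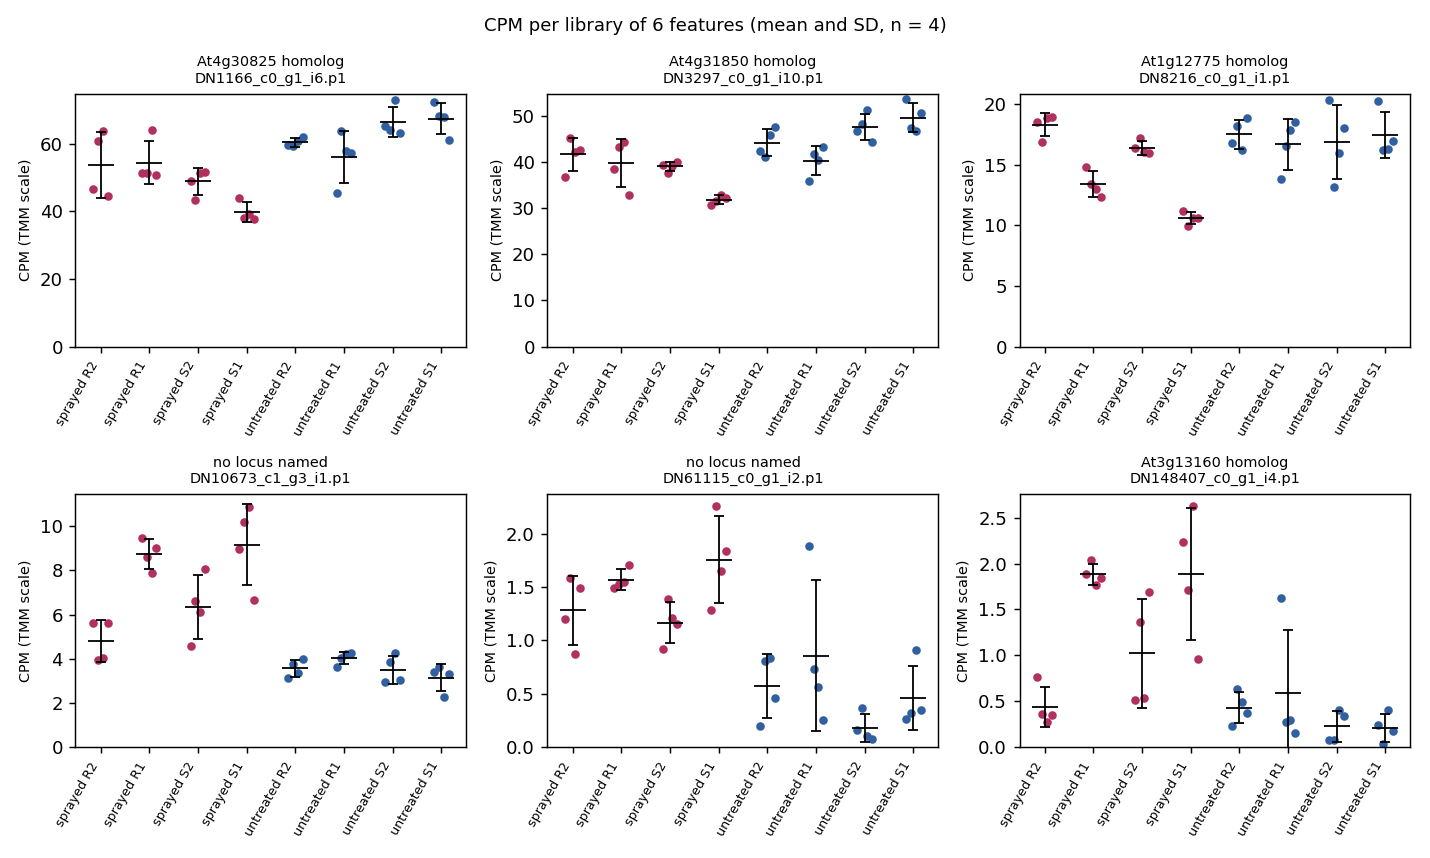
Each panel gives the CPM (TMM scale, vertical axis from 0) of 1 PPR feature in every library, by group, with the mean and SD of 4 libraries; error bars that would pass below 0 end at the axis. The At4g30825 and At4g31850 homologs have their lowest group means in sprayed S1, at 37.6 to 44 and 30.7 to 32.9 CPM.

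Of the members named for neither place, 55% were called higher in sprayed susceptible leaves, beside 54.5% of the mitochondrial ones. TRINITY_DN61115_c0_g1_i2.p1, whose description names no locus, had a log2 fold change of 1.01 ± 0.33 in resistant plants, short of the threshold, and 2.34 ± 0.35 in susceptible plants. It had 0.918, 1.39, 1.21 and 1.15 CPM in sprayed S2 and 1.28, 2.26, 1.65 and 1.83 in sprayed S1, against 0.164, 0.366, 0.101 and 0.0782 in untreated S2 and 0.265, 0.32, 0.906 and 0.349 in untreated S1. All sprayed susceptible libraries were above all untreated ones. The At2g30780 homolog (TRINITY_DN14499_c0_g1_i1.p1) was at 1.19 ± 0.51 in resistant plants, short of the threshold, and at 1.91 ± 0.52 in susceptible plants, from 0 to 32 counts per library.

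The lower members named for neither place were led by the At1g31920 homolog (TRINITY_DN8546_c0_g1_i1.p1), at -0.50 ± 0.18 in resistant plants, short of the threshold, and -0.82 ± 0.18 in susceptible plants. The At1g09900 homolog TRINITY_DN3564_c0_g1_i2.p1 was lower in both classes. It had 9.22, 11.2, 12.3 and 9.18 CPM in sprayed R2 and 9.38, 10, 12.3 and 9.77 in sprayed R1, against 13.2, 13.8, 13.6 and 16 in untreated R2 and 12, 15.7, 13.9 and 13.1 in untreated R1. Sprayed S2 had 11.1, 7.84, 8.79 and 9.77 CPM and sprayed S1 6.98, 6.82, 7.19 and 8.18, against 15.7, 14.4, 13.4 and 14 in untreated S2 and 14.5, 11.2, 15.7 and 15 in untreated S1. Sprayed libraries lay below untreated ones without overlap in R2, S2 and S1, and the ranges overlapped in R1. The log2 fold change was -0.42 ± 0.09 in resistant and -0.78 ± 0.09 in susceptible plants.

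Further lower members with many counts were TRINITY_DN1613_c0_g1_i8.p1 and TRINITY_DN3390_c0_g1_i3.p1, at -0.63 ± 0.19 and -0.44 ± 0.09 in susceptible plants, both with no locus in the description. The At2g41720 homolog (TRINITY_DN7245_c0_g1_i17.p2), EMB2654 in Arabidopsis and needed there for trans-splicing of a plastid ribosomal protein message, stood at -0.17 ± 0.15 in resistant and -0.50 ± 0.15 in susceptible plants. The At5g03800 homolog (TRINITY_DN15209_c0_g1_i1.p1), EMB175 in Arabidopsis and required for embryo growth, stood on the other side at 0.11 ± 0.10 in resistant and 0.43 ± 0.10 in susceptible plants. These last 2 were outside the naming rule and were chosen after their values were seen, for their known roles.

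Members with few counts were mostly higher, and members with many counts mostly lower, in sprayed susceptible leaves. Of 17 members with a mean under 1 CPM, 12 were higher and 1 lower. Of 14 members with a mean of 10 CPM or more, 2 were higher and 12 lower. The bins between held 7 higher and 2 lower of 10 (1 to 2 CPM), 6 and 5 of 12 (2 to 5 CPM) and 3 and 6 of 10 (5 to 10 CPM). In the same order of bins, 55.4%, 52.5% and 40.8% of described features were higher and 23.8%, 29.1% and 40.6% lower. Of all tested features there, 16.1%, 18% and 17.6% were higher and 7.46%, 10.3% and 17.7% lower. Over all tested features, 9.2% were higher and 2.88% lower under 1 CPM, and 13% were higher and 37.1% lower from 10 CPM on, so lower calls became more frequent with counts there too. Among described features, 50.6% were higher and 14.9% lower under 1 CPM, and 22.8% and 64.5% from 10 CPM on. Counts also differed by named place. Members called lower had a median of 24.9 CPM if chloroplastic, 2.55 if mitochondrial and 6.71 if neither. Those called higher had medians of 5.97, 1.09 and 1.33 CPM in the same order. CPM is not corrected for length here, so these bins rank counts and not transcript levels.

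**Figure D3:**
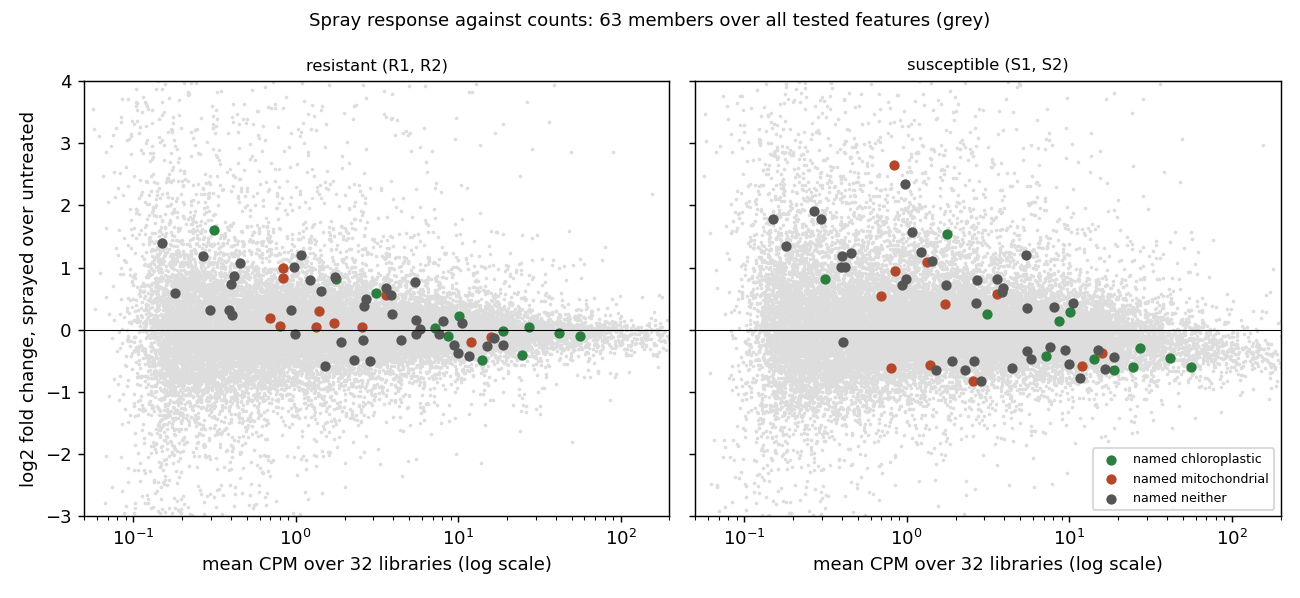
The vertical axis gives the log2 fold change of sprayed over untreated leaves and the horizontal log axis the mean CPM over 32 libraries, for resistant populations on the left and susceptible populations on the right; grey points are all tested features within the axis limits and coloured points the 63 PPR features. On the right, 12 of the 14 members at or above 10 CPM were called lower, and 12 of the 17 below 1 CPM were called higher. Of described features, 64.5% were lower and 50.6% higher in these bins. Of all tested features, the shares were 37.1% and 9.2%.

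Resistant plants showed a smaller response on the same members. The authors' deposited table listed 60 of the members for the susceptible response and 17 for the resistant one. The choice of members thus favours a larger susceptible value, and nothing about resistance is read from it. Of 63 members, 11 were higher and 5 lower in sprayed resistant leaves, together 25.4%, beside 9.14% of all tested features (5.63% higher, 3.51% lower) and 29.1% of described ones. Nothing is read from this share either. With library totals that leave out the 10 most abundant features the split was 14 higher and 1 lower. The 2 chloroplastic members called higher were the homologs of At5g50390 (TRINITY_DN7804_c0_g1_i3.p1, 0.60 ± 0.18) and of At3g53700 (TRINITY_DN39456_c1_g1_i1.p1). Both were called in resistant plants and not in susceptible ones, where their values were also above 0, at 0.25 and 0.81. The difference between the responses of the classes was called for neither. The other 14 were called in the same direction in both classes, 9 higher and 5 lower, which is 87.5% of the resistant calls and 25% of the susceptible calls; for all tested features these shares were 79.3% and 28.6%. The At1g13630 homolog (TRINITY_DN40493_c0_g2_i4.p1) was at 1.20 ± 0.24 in resistant and 1.57 ± 0.24 in susceptible plants. The At1g62350 homolog TRINITY_DN18722_c0_g1_i5.p1 was 2.11-fold higher in sprayed resistant plants (log2 fold change 1.08 ± 0.30) and 2.36-fold higher in sprayed susceptible plants. TRINITY_DN1761_c0_g1_i2.p5, with no locus, was at -0.49 ± 0.13 in resistant and -0.66 ± 0.13 in susceptible plants, and its resistant value became 0.03 when all features of its assembled gene were summed.

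The count of higher members in resistant plants depended on single libraries. It was 17 without untreated R1 replicate 1 and 7 without sprayed R1 replicate 1. Several members had their highest untreated value in untreated R1 replicate 1, among them the At3g13160 homolog at 1.62 CPM and TRINITY_DN61115_c0_g1_i2.p1 at 1.88 CPM. That library also held the largest share of counts in features described as histones, cyclins, cell division proteins or kinesins, 0.0307%. This is a share of its library total, without its scaling factor of 1.236. The part of these features in the members' values was not tested.

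Taken population by population, the members called numbered 0 in R2, 9 in R1 (7 higher, 2 lower), 15 in S2 (9 higher, 6 lower) and 43 in S1 (22 higher, 21 lower). In R2, 14 members had an unadjusted p under 0.05 in edgeR. The unadjusted share over all features was not counted, so nothing is read from this number. Over all tested features, 1.64% were called in R2 (1.28% higher, 0.359% lower), 5.69% in R1 (3.84% and 1.85%), 7.2% in S2 (4.6% and 2.6%) and 20% in S1 (10.9% and 9.04%). Over described features the shares were 5.25% in R2, 17% in R1, 22.8% in S2 and 58.1% in S1. Members and all features stood in the same order of populations, and the tests of the difference between populations of a class are given below.

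The response had 1 sign in all 4 populations for 44 of 63 members, 29 above 0 and 15 below, or 69.8%, beside 66% of described and 36.6% of all tested features. The absolute log2 fold change was larger in S1 than in S2 for 50 of 63 members, or 79.4%, beside 70.4% of described and 60.3% of all tested features. It was larger in R1 than in R2 for 37 of 63, or 58.7%, beside 60.6% of described and 58.2% of all tested features. Members whose sprayed and untreated libraries did not overlap were most numerous in S1. In R2, 8 members had all sprayed libraries above all untreated ones and 3 had all below, beside 4.5% and 3.05% of all tested features. In R1 the numbers were 8 and 3 (6.31% and 4.55% of all features), in S2 16 and 5 (7.36% and 4.59%) and in S1 23 and 18 (11.8% and 9.79%). The spray response chose most members, which favours such separation. Described features were not counted this way, so nothing is read from these numbers.

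Summed over libraries, the 28 members with a susceptible log2 fold change below 0 and the 35 above 0 give the same picture per population. The sum of the 28 was 335.9 ± 34.6 CPM in sprayed R2, 316.7 ± 16.1 in sprayed R1, 304.3 ± 8.84 in sprayed S2 and 246.6 ± 22.5 in sprayed S1, against 377.9 ± 8.06 in untreated R2, 353.2 ± 20.2 in untreated R1, 384.6 ± 13.8 in untreated S2 and 394 ± 24.2 in untreated S1 (SD, n = 4). The sum of the 35 was 100.6 ± 7.61 CPM in sprayed R2, 105.5 ± 4.76 in sprayed R1, 100.3 ± 4.68 in sprayed S2 and 115.4 ± 10.2 in sprayed S1, against 80.6 ± 4.84 in untreated R2, 80.1 ± 14.1 in untreated R1, 68.7 ± 6.46 in untreated S2 and 72.2 ± 7.47 in untreated S1 (SD, n = 4). Sprayed S1 lay farthest from its untreated libraries on both sums. Both sets were split by these same values, so the sums are a description of where the libraries lie. Sprayed S1 also had the highest mean scaling factor, 1.16, against 0.859 in untreated S1. The 29 dividing-cell features, none at 0 in all libraries, took 0.0189% to 0.0223% of counts in sprayed S1, against 0.0138% to 0.0146% in untreated S1. These are shares of library totals, to which the scaling factors were not applied, so their difference is not separate from that of the factors. They also cover only features that the authors had listed. The part of factors and dividing-cell features in the sums was not tested.

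**Figure D4:**
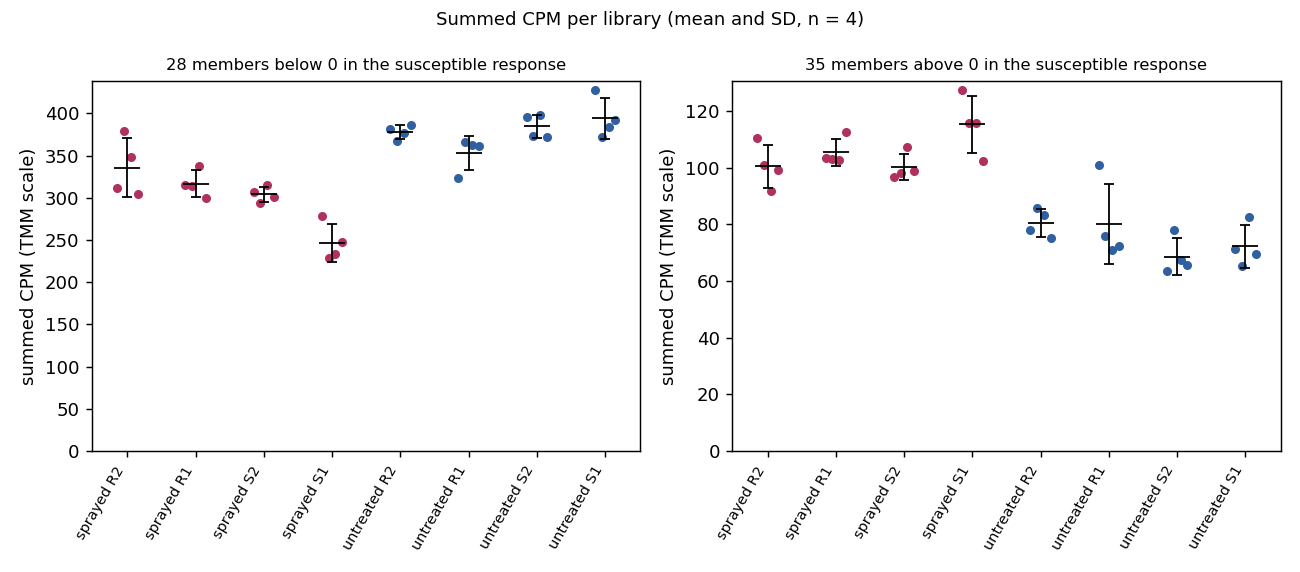
The vertical axes give the summed CPM (TMM scale, from 0) of the 28 PPR features with a susceptible log2 fold change below 0 (left) and the 35 above 0 (right) in each library, with mean and SD of 4 libraries per group. Sprayed S1 has the lowest mean on the left, 246.6, and the highest on the right, 115.4.

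Between the classes, 5 of 63 PPR features were called in untreated leaves and 5 in sprayed leaves, 7.94% each. These values also chose the members, so nothing is read from the shares. In untreated leaves, 4 members were higher and 1 lower in resistant than in susceptible plants, beside 4.13% of all tested features (2.76% higher, 1.37% lower) and 12.9% of described ones. TRINITY_DN61115_c0_g1_i2.p1 was higher by 1.32 ± 0.36 on the log2 scale, with 0.2, 0.802, 0.835 and 0.459 CPM in untreated R2 and 1.88, 0.731, 0.567 and 0.251 in untreated R1, against the untreated susceptible values given above. The ranges of the classes overlapped. The homologs of At1g71460 (TRINITY_DN143490_c0_g1_i1.p1, 0.38 ± 0.11) and PPR5 (0.37 ± 0.10) and TRINITY_DN8090_c0_g1_i5.p1 (0.33 ± 0.07) were also higher. The At3g18110 homolog was lower, by -0.55 ± 0.13, with 19.4, 14.9, 18.1 and 16.7 CPM in untreated R2 and 17.7, 13.9, 19.6 and 16.8 in untreated R1, against 28.7, 33.9, 26 and 17.5 in untreated S2 and 28.5, 27.7, 19.4 and 20.3 in untreated S1. The ranges overlapped, with untreated S2 replicate 4 and untreated S1 replicate 3 inside the resistant range.

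These untreated counts rested on single libraries. Higher members numbered 1 without any 1 of untreated R2 replicates 2 and 3, R1 replicate 1, S2 replicates 1, 3 and 4 and S1 replicate 2, and 2 without untreated S1 replicate 1 or 4. Lower members numbered 3 without sprayed R1 replicate 4, and 2 without any 1 of sprayed R2 replicates 1 and 3, sprayed R1 replicates 2 and 3, sprayed S1 replicate 1, untreated R2 replicate 4 and untreated S1 replicate 3. With library totals alone, 11 were higher and 0 lower.

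In sprayed leaves, 5 members were higher and 0 lower (0 also with DESeq2) in resistant than in susceptible plants, beside 2.3% of all tested features (1.55% higher, 0.751% lower) and 7.02% of described ones. They were the homologs of At1g62350 (TRINITY_DN4589_c0_g1_i9.p1, 0.55 ± 0.13), At4g16390 (0.37 ± 0.10), At1g09900 (TRINITY_DN3564_c0_g1_i2.p1, 0.33 ± 0.09) and At4g30825 (0.30 ± 0.08), and TRINITY_DN8090_c0_g1_i5.p1 (0.39 ± 0.07). None of the 5 passed with library totals alone. The number was 1 without sprayed R2 replicate 3, sprayed S2 replicate 2 or sprayed S1 replicate 2, and 2 without sprayed R2 replicate 2, sprayed R1 replicate 2 or 3, sprayed S2 replicate 4 or sprayed S1 replicate 3. It was 3 without sprayed S2 replicate 1 or 3 or sprayed S1 replicate 4.

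The spray responses of the classes differed for 2 members, both chloroplastic, beside 0.563% of all tested features (0.387% higher, 0.176% lower) and 1.83% of described ones. The resistant response minus the susceptible one was 0.50 ± 0.11 for the At4g30825 homolog and 0.41 ± 0.09 for the At4g31850 homolog, the members whose library values are given above. The number was 0 without any 1 of sprayed R2 replicate 2, sprayed R1 replicates 2 and 3, sprayed S2 replicates 2 and 3, sprayed S1 replicate 2, untreated R2 replicates 2 and 3 and untreated R1 replicate 1. It was 1 without sprayed R2 replicate 3, untreated S2 replicate 3 or untreated S1 replicate 1. With library totals alone the 2 values were no longer called, and 3 other members were called lower.

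Comparisons of the 2 populations of a class were not used to choose the members and were tested. In untreated leaves no member differed between S2 and S1 (edgeR, 0 of 63 at an adjusted p under 0.05 and 1 at an unadjusted p under 0.05; 0.00799% of all tested features called, all higher in S2, and 0.026% of described ones) or between R2 and R1 (0 of 63, 3 unadjusted; 0.0399% of all tested features, 0.024% higher and 0.016% lower, and 0.065% of described ones). DESeq2 also called 0 in both. In sprayed leaves, 2 members were higher in S2 than in S1, beside 1.34% of all tested features (0.603% higher, 0.739% lower) and 3.57% of described ones. One member was lower in R2 than in R1, beside 0.407% of all tested features (0.0879% higher, 0.32% lower) and 1% of described ones. An unadjusted p under 0.05 was reached by 17 members between S2 and S1 and by 15 between R2 and R1. The unadjusted counts here have no share over all features beside them, and nothing is read from them. The called shares of members, 3.17% and 1.59%, rest on so few calls that they are not read as differing from all features.

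The clearest population difference was that of the mitochondrial At1g12775 homolog (TRINITY_DN8216_c0_g1_i1.p1). It had 16.4, 17.2, 16.1 and 16 CPM in sprayed S2, against 11.2, 9.99, 10.6 and 10.6 in sprayed S1. The groups did not overlap, and the log2 fold change was 0.63 ± 0.11, or 1.55-fold (edgeR adjusted p = 0.00297). In untreated leaves it had 20.4, 13.2, 16 and 18.1 CPM in S2, against 20.2, 16.2, 16.3 and 17 in S1, a log2 fold change of -0.05 ± 0.11 with overlapping ranges. Sprayed R2 had 18.5, 16.9, 18.8 and 19 CPM, against 14.8, 13.4, 13 and 12.3 in sprayed R1. Those groups did not overlap either, but the value of 0.45 ± 0.11 missed the threshold (edgeR adjusted p = 0.0562). The response itself differed by 0.67 ± 0.15 between S2 and S1, which did not pass the correction (edgeR adjusted p = 0.129).

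TRINITY_DN8090_c0_g1_i5.p1, with no locus in its description, had 12.4, 13.8, 16.2 and 12 CPM in sprayed S2, against 11, 9.42, 9.67 and 9.63 in sprayed S1. All sprayed S2 libraries were above all sprayed S1 libraries, with a log2 fold change of 0.45 ± 0.10 (edgeR adjusted p = 0.027). The call was lost without any 1 of sprayed S2 replicates 1, 2 and 3 and sprayed S1 replicates 2 and 3, which left 1 member called, and 4 were called without sprayed S1 replicate 4. In untreated leaves it had 15.6, 15.4, 14.3 and 15.5 CPM in S2, against 13.7, 12.8, 14.8 and 15.1 in S1, a log2 fold change of 0.11 ± 0.10.

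TRINITY_DN10673_c1_g3_i1.p1, also with no locus, was the member that differed between the resistant populations. It had 5.63, 3.92, 4.01 and 5.62 CPM in sprayed R2, against 9.48, 8.61, 7.89 and 9.03 in sprayed R1. No library overlapped, and the log2 fold change was -0.87 ± 0.17, or 0.548-fold (edgeR adjusted p = 0.0164). In untreated leaves it had 3.12, 3.76, 3.36 and 4.01 CPM in R2, against 3.62, 4.04, 4.2 and 4.26 in R1, a log2 fold change of -0.18 ± 0.18. Its response was positive in both resistant populations, 0.43 in R2 and 1.12 in R1, and the difference of -0.69 ± 0.25 did not pass (edgeR adjusted p = 0.744). The call in sprayed leaves was lost without sprayed R2 replicate 2 or 3 or sprayed R1 replicate 1 or 4, which left 0 members called. The number of members called was 2 without untreated R1 replicate 1, sprayed S2 replicate 4 or untreated S2 replicate 1 or 2.

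No member passed in the tests of whether the spray response differed between populations of a class. Between S2 and S1, 0 of 63 passed (12 at an unadjusted p under 0.05; 0.028% of all tested and 0.0909% of described features called; DESeq2 called 1). Between R2 and R1, 0 of 63 passed (7 unadjusted, 0.00399% of all tested features called, DESeq2 called 0). The unadjusted counts have no share over all features beside them, and nothing is read from them.

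Other organelle RNA factors were counted by word patterns in the descriptions, with the same limit that only features the authors had listed carry one. In the susceptible response, 8 of 10 organelle ribonucleases and RNA-binding proteins were lower and 1 higher, with a median log2 fold change of -0.57; population by population, 8 were lower in S1 and 2 in S2. Among all described features 79.2% were called in this response and 36.7% were lower, which is the background for each of these lists. The chloroplastic ribonuclease E/G-like protein (TRINITY_DN366_c0_g1_i73.p2), of the enzymes that cut plastid transcripts, was at -0.25 ± 0.08 in resistant and -0.83 ± 0.08 in susceptible plants. The mitochondrial polyribonucleotide nucleotidyltransferase 2 (TRINITY_DN23424_c0_g1_i2.p1), an exonuclease, was at 1.92 ± 0.40 in susceptible plants. Of 6 organelle transcription features 2 were higher and 4 lower, with DNA-directed RNA polymerase 3, a phage-type plastid polymerase, at 0.59 ± 0.13 in resistant and 0.55 ± 0.13 in susceptible plants. Of 3 RNA editing factors 2 were higher and 1 lower, and of 3 mTERF factors 2 and 1. The words tetratricopeptide or TPR matched 4 features, 2 higher and 1 lower, but 1 of the higher ones was nucleoprotein TPR, a nuclear pore protein that shares only the abbreviation. Both tested splicing factors were lower, among them CRS1 (TRINITY_DN859_c0_g1_i14.p1), which splices a plastid group II intron, at -0.29 ± 0.07. The list of words for organelle-encoded messages, the targets of PPR proteins as a class, matched 32 features. Of these, 24 were lower and 0 higher, with a median of -0.38. Population by population, 24 were lower in S1 and 3 in S2. The words can also match nuclear-encoded subunits of the same complexes, and the encoding genome of the 32 was not checked. None of these lists was recomputed with other scalings. With library totals alone, the median of all tested features in the susceptible response moved from -0.01 to 0.30. Lower calls over all tested features fell from 2963 to 757, and the part of scaling in the list values was not tested. In untreated leaves, 11 of the 32 features of the organelle-encoded list were lower in resistant than in susceptible plants. In that comparison 1.37% of all tested and 4.13% of described features were lower. With library totals alone its median over all tested features was 0.21, against -0.0020 with TMM. In the resistant response these lists held 1 higher editing factor, 1 higher transcription feature, 1 lower ribonuclease and 2 lower features of the organelle-encoded list. The other 3 lists held 0 calls. Over described features 29.1% were called in the resistant response.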

How the data were processed

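The authors deposited raw counts per feature for 32 libraries, whole numbers without normalization, and a table of log2 fold changes and adjusted p-values for 4 comparisons, listed only below 0.05 and with descriptions. The submitters' processing notes name R 3.6.1, STAR 2.5.2b, FastQC 0.11.5 and DESeq2 1.24.0; settings, assembly and feature lengths are not given in the sources used here. No genome or sequence table was used, so features have no chromosomal position and no sequence is printed.

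In R 4.3.3, edgeR 4.0.16 was used: filterByExpr left 25036 features, which were scaled by TMM. A quasi-likelihood model with 8 group means was fitted to all libraries (24 residual degrees of freedom), with populations weighted equally in contrasts and Benjamini-Hochberg adjustment over all 25036 features. A feature is called at an adjusted p under 0.05. The SE is the absolute log2 fold change divided by the square root of F. The test was checked on simulated counts in which 200 features were changed, as many raised as lowered. This is far fewer than were called in the susceptible response, and it does not bear on the choice of scaling. Levels are CPM on the TMM scale. No 2 libraries agreed within sampling noise.

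The members and word lists were chosen with earlier results of these data known. Named members were, per class comparison, the 3 called with the largest change in each direction, 1 per description; in each population comparison up to 5 called in each direction; the 3 with the highest mean CPM per place; and any with a gene name of its own. Homologs of At2g18940, At3g48250, At5g50390, At2g41720 and At5g03800 were added after their values were seen. Alternatives were other scalings, no filter on low counts, DESeq2 1.42.0, fits on the compared groups alone, the replicate number as a block, sums per assembled gene, and leaving out each library.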

Additional observations from a re-analysis of the deposited data

Results flagged for a closer look

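Within groups of 4 libraries, single libraries of PPR features or sums stood apart in 13 of 224 groups checked (5.8%), where chance gives about 1 in 20. Untreated R1 replicate 1 accounted for 5 of them: it was high for the At3g13160 homolog (1.621 CPM), the At3g53700 homolog TRINITY_DN5013_c0_g1_i1.p1 (23.56 CPM), TRINITY_DN8090_c0_g1_i5.p1 (22.31 CPM) and the sum of the 35 members above 0 (100.9 CPM), and low for the sum of the 28 members below 0 (323 CPM). Sprayed S1 replicate 1 was high for TRINITY_DN8090_c0_g1_i5.p1 (11.01 CPM), for the At4g16390 homolog (27.54 CPM) and for the sum of all members (405.5 CPM).

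The others were single values. Sprayed R2 replicate 2 was high for TRINITY_DN5013_c0_g1_i1.p1 (17.23 CPM), sprayed R1 replicate 3 was high for the At4g30825 homolog (63.98 CPM), and sprayed R1 replicate 4 was high for the sum of the 35 members above 0 (112.6 CPM). Untreated S2 replicate 3 was low for TRINITY_DN8090_c0_g1_i5.p1 (14.26 CPM), and untreated S1 replicate 3 was high for TRINITY_DN61115_c0_g1_i2.p1 (0.9056 CPM).

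The spray response differed between the classes for the At4g30825 homolog (resistant minus susceptible 0.4971 on the log2 scale) and for the At4g31850 homolog (0.4094). The same libraries chose these features, so the difference is described and not offered as independent evidence.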

How the results depend on the processing

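Each of 34 named values was recomputed under its alternatives, 1358 recomputations in all: 1184 kept direction and side of the threshold, 172 kept direction and lost the call, and 2 reversed. At least 1 alternative ended the call or turned the direction for 25 of the 34 values. The reversals were the susceptible value of the At4g16390 homolog, 0.02311 with library totals alone, and the resistant value of TRINITY_DN1761_c0_g1_i2.p5, 0.03497 with assembled genes summed. The cause was not tested.

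Calls of lower members depended most on scaling. With library totals alone, lower members numbered 3 in the resistant and 4 in the susceptible response, untreated classes had 11 higher and 0 lower, sprayed classes 0 higher, the difference between responses 0 higher and 3 lower, and S2 against S1 in sprayed leaves 0. Under that scaling the median of all features stood at 0.30 (susceptible response), 0.21 (untreated classes), -0.31 (difference between responses) and -0.18 (sprayed S2 against S1), against -0.01, -0.0020, -0.02 and -0.00092 with TMM. With library totals without the 10 most abundant features, the numbers were 1 lower (resistant), 10 lower (susceptible), 0 higher (sprayed classes), 0 higher (difference between responses) and 1 (sprayed S2 against S1), and the 1 member called between sprayed R2 and R1 was then higher and not TRINITY_DN10673_c1_g3_i1.p1. With DESeq2 size factors 2 were lower between untreated classes.

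With no filter, 2 were higher between untreated and 2 between sprayed classes. The DESeq2 test called 4 lower between untreated classes, 8 higher between sprayed classes, 4 higher for the difference between responses, 6 in sprayed S2 against S1, 3 in sprayed R2 against R1 and 1 for the response of S2 against S1. With the compared groups alone, 7 were higher in the resistant response and 1 between untreated classes, 1 differed in sprayed S2 against S1 and 2 in sprayed R2 against R1. With assembled genes summed, 3 were lower between untreated classes.

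Leaving out 1 library at a time gave 7 to 17 higher and 4 to 7 lower (resistant), 24 to 31 higher and 21 to 26 lower (susceptible), 1 to 4 higher and 1 to 3 lower (untreated classes), 1 to 6 higher (sprayed classes), 0 to 2 higher (difference between responses), 1 to 4 (sprayed S2 against S1) and 0 to 2 (sprayed R2 against R1). The population calls were lost in 1 of 40 settings for the At1g12775 homolog, 8 for TRINITY_DN8090_c0_g1_i5.p1 and 5 for TRINITY_DN10673_c1_g3_i1.p1.

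Replicate numbers are shared between groups but do not pair the libraries: over 5000 features, 26 of 112 same-numbered pairs had a residual correlation over 0.1 (mean -0.00646), and 9 of 32 libraries correlated best with their own number. With the replicate number as a block, 3 members were higher between sprayed classes, against 5 without it, and no other count moved by over 1.5 times. Members with few counts, such as the homologs of At2g30780, At5g16860 and the untested At3g48250, are limited by depth.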
